A study of Mus musculus and Rattus norvegicus with 30 samples.

Results

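A set of 10 genes that mark macrophages were followed in RNA-seq of the dorsal root ganglion (DRG), the cluster of sensory nerve cell bodies beside the spinal cord, after peripheral nerve injury in mouse and rat. The genes were taken by their symbol from a list of 10: Aif1, Cd68, Adgre1, Mrc1, Itgam, Cd163, Lyz2, Trem2, Tyrobp and Fcgr3. All 10 were among the 54315 features of the mouse count table and all 10 had enough counts to be tested. In the rat table of 39281 features, 9 of the symbols were present, and 6 of these (Adgre1, Itgam, Cd163, Lyz2, Trem2 and Tyrobp) had any count and were tested.

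Mice of the inbred strains BALB/c and B10.D2, of both sexes and adult at surgery, had spared nerve injury (SNI), which severs the common peroneal and sural nerves and keeps the tibial nerve, or a sham operation that exposed the nerve alone. Each mouse library came from the pooled L3 and L4 ganglia of 1 animal, collected 28 days after surgery. There were 6 BALB/c sham libraries (3 male), 4 BALB/c SNI libraries (2 male), 5 B10.D2 sham libraries (3 male) and 5 B10.D2 SNI libraries (2 male). Male Wistar rats had transection of the L5 spinal nerve (SNT) or a sham operation, and each of the 4 sham and 4 SNT libraries held the L5 ganglia of 3 rats, 21 days after surgery. Mouse libraries carry the number of their sample label, and rat libraries are numbered within each group.

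Macrophages live in the resting DRG between and around the neurons, and others enter the ganglion or divide there after the axons of its neurons are cut. They carry receptors for antibodies, complement and lipids, signal through small adaptor proteins with tyrosine-based motifs, and break down what they engulf in lysosomes. In peripheral nerve and ganglion, tissue macrophages rich in scavenger receptors are known beside macrophages and monocytes that respond to damage. The levels below are of whole ganglia, in which a change in the number of cells and a change in RNA per cell cannot be told apart.

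Mouse libraries totalled 29.99 to 41.88 M counts (M, mega) and rat libraries 11.95 to 17.89 M, so that 3 counts corresponded to 0.0716 to 0.100 counts per M (CPM) in mouse and 0.168 to 0.251 CPM in rat. Markers of neurons summed to 10128 to 15304 CPM in the mouse libraries, with none of the 10 at 0 in any of them. In rat they summed to 3496 to 5505 CPM, with 7 of the 9 listed at 0 in each library. Also at 0 were 39.5% of rat genes with the symbol of a protein-coding mouse gene. All 8 axon injury genes (Atf3, Sprr1a, Gal, Gap43, Npy, Sox11, Csf1 and Ecel1) were called higher after SNI in both strains, and all 5 that were tested in rat were called higher after SNT, with sham library 4 or without it. In rat, however, sham library 4 held 429 CPM of these genes in sum, against 133 to 155 CPM in the other 3 sham libraries and 593 to 911 CPM after SNT. On the first principal component of all tested rat features, which held 71.5% of the variance, the remaining sham libraries scored -48.7 to -35.7 and the remaining SNT libraries 30.6 to 49.9, with sham library 4 at -6.33 and SNT library 1 at 1.09. Rat results for the members, and the counts of the other gene lists, are therefore given with and without sham library 4. In mouse, 4 BALB/c libraries held over 100 CPM of 10 summed neutrophil genes (S100a8, S100a9, Ngp and others): sham 50 (256 CPM), sham 55 (142 CPM), SNI 49 (423 CPM) and SNI 65 (146 CPM). The other 6 BALB/c libraries held 37.1 to 78.2 CPM and the 10 B10.D2 libraries 20.5 to 69.1 CPM. Summed cell cycle genes were also high in these 4, at 67.8 to 151 CPM, against 17.5 to 45.1 CPM in every other mouse library. Neutrophils also express some of the members, Lyz2 and Itgam among them.

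Promoters are shown for the 4 members called after SNI in BALB/c mice that had a promoter sequence available. Each line gives the 250 bases before the RefSeq start site on GRCm38.p6, 5′ to 3′ on the strand of the gene. Capitals mark a match on either strand to GAGGAA, the core letters bound by PU.1, the transcription factor of the myeloid lineage, or to TGACTCA, the letters bound by AP-1.
Trem2 (chr17:48346151-48346400, plus strand): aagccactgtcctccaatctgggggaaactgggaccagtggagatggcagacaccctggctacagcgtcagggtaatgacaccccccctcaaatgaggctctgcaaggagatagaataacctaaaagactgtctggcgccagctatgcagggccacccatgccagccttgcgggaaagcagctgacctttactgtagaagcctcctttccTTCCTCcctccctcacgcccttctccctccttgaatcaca
Cd68 (chr11:69666171-69666420, minus strand): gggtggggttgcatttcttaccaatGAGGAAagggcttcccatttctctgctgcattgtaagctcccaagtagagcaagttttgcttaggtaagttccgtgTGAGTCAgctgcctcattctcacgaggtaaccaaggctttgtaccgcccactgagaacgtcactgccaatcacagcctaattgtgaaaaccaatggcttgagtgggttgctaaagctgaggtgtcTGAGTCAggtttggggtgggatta
Lyz2 (chr10:117282273-117282522, minus strand): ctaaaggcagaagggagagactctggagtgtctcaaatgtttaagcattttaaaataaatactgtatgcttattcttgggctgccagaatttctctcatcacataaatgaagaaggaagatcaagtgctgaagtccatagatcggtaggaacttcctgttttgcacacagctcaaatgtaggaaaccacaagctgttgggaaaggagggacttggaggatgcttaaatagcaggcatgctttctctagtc
Fcgr3 (chr1:171059404-171059653, minus strand): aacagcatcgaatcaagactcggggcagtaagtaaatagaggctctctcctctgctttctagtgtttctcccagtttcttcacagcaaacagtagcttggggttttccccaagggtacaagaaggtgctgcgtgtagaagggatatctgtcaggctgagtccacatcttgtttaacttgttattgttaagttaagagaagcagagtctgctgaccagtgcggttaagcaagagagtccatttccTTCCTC

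Of the 10 members, 8 had a RefSeq promoter in the table used, and Adgre1 and Tyrobp had none. GAGGAA was present in 6 of the 8, in 1 copy in Trem2, Cd68, Fcgr3 and Aif1, in 2 copies in Itgam and in 3 copies in Mrc1, and was not in the windows of Lyz2 and Cd163. Among all 32851 promoter windows of the same length, 23.3% held it. TGACTCA was present in 2 copies in Cd68 alone (4.46% of all promoters). The interferon response element, a repeat of GAAA with a short gap, was present in Aif1 alone (2.98% of all promoters), and CACGTG, the E-box bound by factors of the lysosomal gene programme, was present in none of the 8 (6.02% of all promoters). A match gives the letters alone and does not show binding, and the members that carried GAGGAA included Trem2, which was called after injury in both strains, and Mrc1, which was called in neither.

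Compared per kilobase (kb) of exon, Lyz2 was by far the most abundant member in every mouse group. Lyz2, the lysozyme of myeloid cells, lay at 63.0 ± 25.0 CPM per kb (SD, n = 6) in BALB/c sham and 65.8 ± 6.46 CPM per kb (SD, n = 5) in B10.D2 sham. Next in sham ganglia came Tyrobp, the adaptor DAP12 that passes on the signal of TREM2 (6.71 ± 1.88 CPM per kb in BALB/c, SD, n = 6), and Mrc1, the mannose receptor CD206 of tissue macrophages (6.32 ± 2.0 CPM per kb, SD, n = 6). Their values did not differ beyond their spread. Fcgr3, a low-affinity antibody receptor (3.10 ± 0.868), Adgre1, the F4/80 antigen (2.92 ± 0.918), Cd68, a lysosomal membrane protein (2.21 ± 0.659), Cd163, the receptor for haptoglobin and haemoglobin (1.93 ± 0.971), and Aif1, the actin-binding protein IBA1 (1.59 ± 0.323 CPM per kb, SD, n = 6), followed with neighbouring values within their spread. Trem2, a receptor for lipids and dying cells (0.432 ± 0.120 CPM per kb), and Itgam, the CD11b chain of the complement receptor (0.405 ± 0.194 CPM per kb), were lowest and did not differ beyond their spread (SD, n = 6). Lengths are of the union of exons in GENCODE M21 and count every annotated isoform, which lowers the value of genes with long alternative exons. The lowest rank of Trem2 and Itgam depends on their lengths of 4.946 and 5.024 kb. In CPM alone, BALB/c sham means of Trem2 (2.14) and Itgam (2.03) lay near those of Aif1 (2.43) and Cd68 (2.78).

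**Figure D1:**
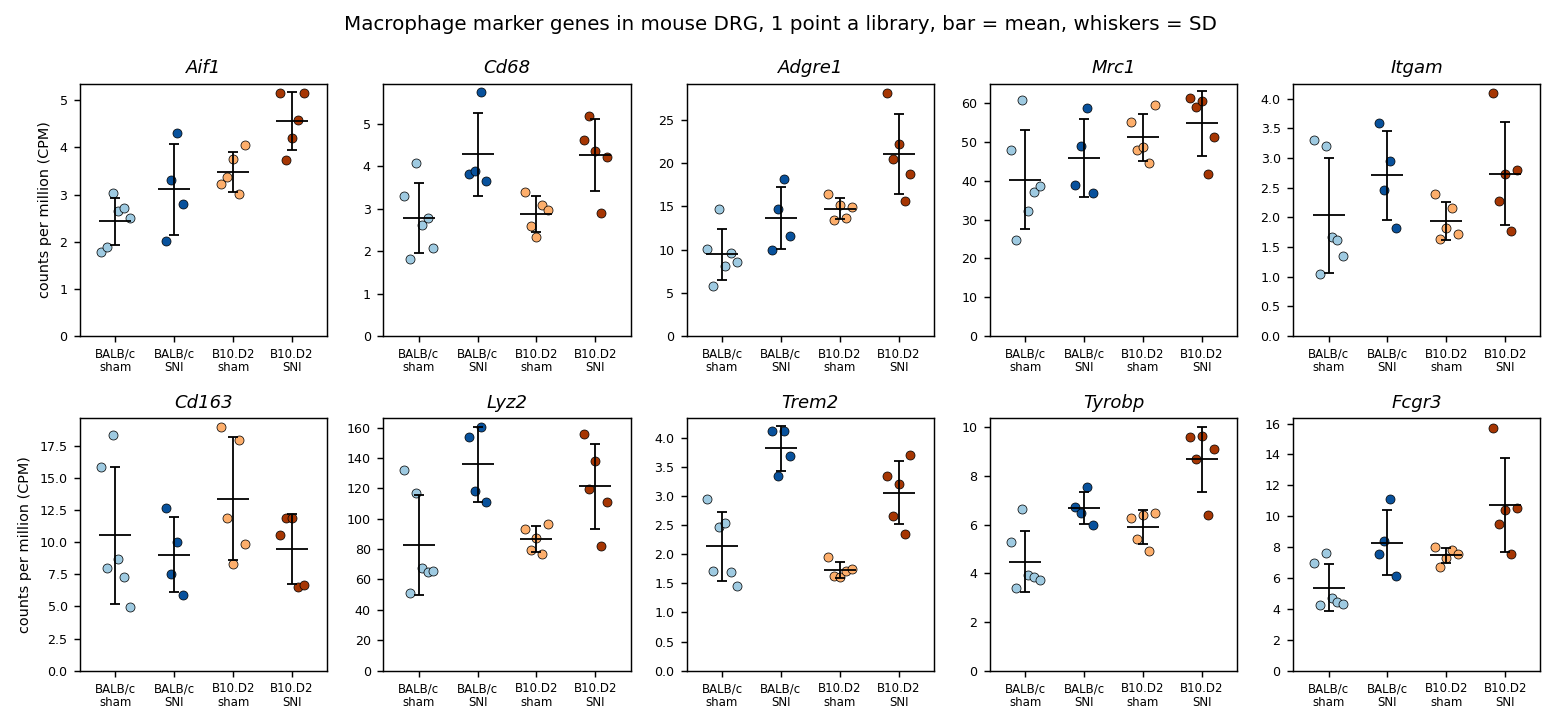
CPM of the 10 macrophage marker genes in each mouse library by group (x axis), 1 point a library, with the mean as a bar and the SD as whiskers. Trem2 is the member whose SNI libraries lie above the sham libraries of their strain in both strains, while the Cd163 and Mrc1 groups overlap throughout.

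The question in mouse was whether the members change in the ganglion after SNI, in either strain. In BALB/c mice 5 of the 10 members rose and none fell: Trem2, Lyz2, Cd68, Fcgr3 and Tyrobp. In B10.D2 mice only Trem2 passed the test. The rises were modest, 1.49-fold to 1.78-fold in BALB/c and 1.76-fold for Trem2 in B10.D2. The median log2 fold change of the 10 members was 0.548 in BALB/c and 0.45 in B10.D2, while the median over all 24685 features tested was 0.0033 and 0.0076. A feature is called where the quasi-likelihood test of edgeR gave an adjusted p (Benjamini-Hochberg over all features tested) under 0.05. By that rule 4.82% of all features were called higher after SNI in BALB/c and 2.1% in B10.D2, against 5 of 10 and 1 of 10 members. Trem2 was also the 1 member of 10 whose SNI and sham libraries did not overlap, in each strain. Over all features, 8.61% did not overlap in BALB/c and 5.18% in B10.D2, so a count of 1 of 10 members is near these shares. In BALB/c the count of 5 members ranged from 1 without sham 56 to 6 in fits that each left out 1 library, and was 1 (Trem2) where the BALB/c groups were fitted alone.

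Trem2 was the member that changed most. In BALB/c sham libraries it ranged from 1.46 to 2.95 CPM with a median of 2.08 CPM, and after SNI it stood at 4.12, 3.33, 4.12 and 3.69 CPM in libraries 49, 64, 65 and 70. All 4 SNI libraries lay above all 6 sham libraries, a log2 fold change of 0.84 (SE 0.17, adjusted p 0.00235 by edgeR). In B10.D2 it was at 1.96, 1.63, 1.6, 1.70 and 1.74 CPM in sham libraries 58, 60, 67, 77 and 88, and at 3.35, 2.65, 3.20, 2.35 and 3.70 CPM in SNI libraries 69, 76, 78, 89 and 90. Again no SNI library reached down to the sham range, and the log2 fold change was 0.82 (SE 0.17, adjusted p 0.00712 by edgeR). Its partner Tyrobp had sham values of 3.38 to 6.66 CPM in BALB/c, with a median of 3.89 CPM, and SNI values of 6.71, 6.49, 7.54 and 5.98 CPM. Sham library 55 alone reached into the SNI range. The log2 fold change of Tyrobp was 0.58 (SE 0.16, adjusted p 0.0213 by edgeR) in BALB/c and 0.52 (SE 0.15, adjusted p 0.0563 by edgeR) in B10.D2, where DESeq2 and 3 of 20 fits without 1 library called it. Its B10.D2 libraries stood at 6.29, 5.43, 6.41, 4.92 and 6.49 CPM in sham and at 9.60, 8.68, 9.65, 6.40 and 9.10 CPM after SNI, with SNI 89 inside the sham range.

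The lysosomal members Lyz2 and Cd68 rose in BALB/c. Lyz2 ranged from 51.1 to 132 CPM in BALB/c sham, with a median of 66.6 CPM, and stood at 154, 118, 160 and 111 CPM in SNI libraries 49, 64, 65 and 70. Sham 50 and 55, at 132 and 117 CPM, overlapped the SNI libraries, and the other 4 sham libraries lay at or under 67.5 CPM. The log2 fold change was 0.71 (SE 0.21, adjusted p 0.0378 by edgeR), and 0.93 without sham 50. DESeq2 gave 0.705 with an adjusted p of 0.0545. In B10.D2, Lyz2 was at 92.9, 79.2, 87.2, 76.9 and 96.6 CPM in sham and at 156, 119, 138, 82.3 and 111 CPM after SNI. Here 4 of 5 SNI libraries lay above all sham libraries, with a log2 fold change of 0.45 (SE 0.22, adjusted p 0.292 by edgeR). Cd68 had a BALB/c sham range of 1.80 to 4.08 CPM, a median of 2.70 CPM, and SNI values of 3.83, 3.89, 5.75 and 3.66 CPM, where sham 55 overlapped. In B10.D2 it stood at 3.39, 2.59, 2.34, 3.09 and 2.97 CPM in sham and at 4.63, 5.18, 4.36, 2.89 and 4.23 CPM after SNI, with SNI 89 inside the sham range. Its log2 fold change was 0.62 (SE 0.18, adjusted p 0.0318 by edgeR) in BALB/c and 0.49 (SE 0.18, adjusted p 0.144 by edgeR) in B10.D2. Lyz2 has a close copy, Lyz1, between which reads may be split. In BALB/c, Lyz1 averaged 1.23 ± 0.307 CPM (SD) over the 6 sham libraries and 1.01 ± 0.330 CPM (SD) over the 4 SNI libraries (adjusted p 0.556 by edgeR). In B10.D2 it averaged 1.79 ± 0.310 CPM in sham and 1.95 ± 0.696 CPM after SNI (SD, n = 5 each, adjusted p 0.926 by edgeR). After SNI, Lyz1 was called higher in B10.D2 than in BALB/c (log2 difference 0.92, adjusted p 0.0162 by edgeR), where Lyz2 had -0.18 (adjusted p 0.637 by edgeR). The part of split reads in these values was not tested.

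Among the surface receptors, Fcgr3 was called in BALB/c. It ranged from 4.26 to 7.65 CPM in BALB/c sham, with a median of 4.57 CPM, and stood at 7.56, 8.38, 11.1 and 6.12 CPM after SNI, a log2 fold change of 0.61 (SE 0.18, adjusted p 0.0379 by edgeR). In B10.D2 the values were 7.98, 6.69, 7.28, 7.82 and 7.53 CPM in sham and 15.7, 9.52, 10.4, 7.55 and 10.5 CPM after SNI (log2 fold change 0.46, SE 0.18, adjusted p 0.17 by edgeR). Sham 50 and 55 reached into the SNI range in BALB/c, and SNI 89 lay within the sham range in B10.D2. Fcgr2b, the inhibitory antibody receptor of the same gene cluster, had log2 fold changes of 0.47 and 0.44, and Fcgr4, another receptor of the family, of 0.86 and 0.83. Neither was called in a strain (adjusted p 0.104 to 0.182 by edgeR).

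Adgre1 just missed the threshold in BALB/c, with a mean of 9.46 ± 2.97 CPM (SD) in the 6 sham libraries and of 13.6 ± 3.62 CPM (SD) in the 4 SNI libraries, a log2 fold change of 0.52 (SE 0.17, adjusted p 0.0533 by edgeR). It was called by DESeq2 and in the fits with library totals alone, with no filter and with a stricter filter. Itgam (log2 fold change 0.41 in BALB/c, 0.45 in B10.D2) and Aif1 (0.35 and 0.35) did not pass the test. Reads in exons that Itgam shares with Gm49368 on the same strand may be counted for neither gene, and Gm49368 held 0 to 5 counts per library. The 2 scavenger receptors of tissue macrophages stood apart in value from the rest. Mrc1 averaged 40.3 ± 12.7 CPM (SD, n = 6) in BALB/c sham and 46.0 ± 10.03 CPM (SD, n = 4) after SNI (log2 fold change 0.18, 95% interval -0.16 to 0.52), and at 51.2 ± 6.05 and 54.8 ± 8.32 CPM (SD, n = 5 each) in B10.D2 (0.04, 95% interval -0.30 to 0.37). Cd163 was the only member with a log2 fold change below 0, at -0.22 in BALB/c (95% interval -0.84 to 0.41) and -0.57 in B10.D2 (95% interval -1.19 to 0.05), and passed the test in neither.

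**Figure D2:**
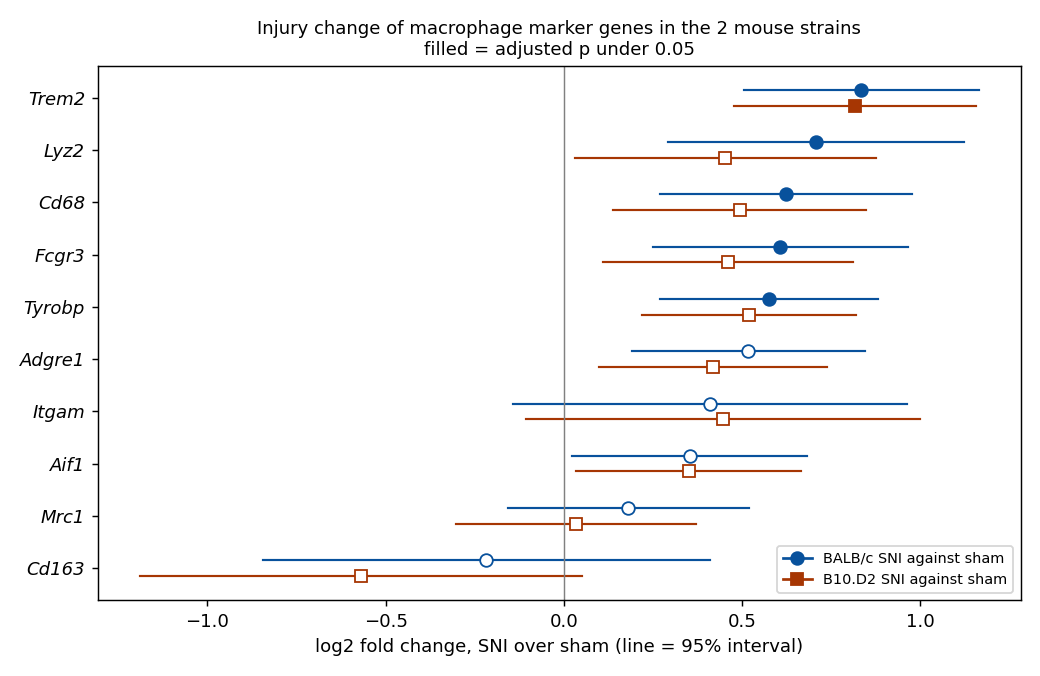
Log2 fold change of SNI over sham (x axis) for each member (y axis, ordered by the BALB/c value) in BALB/c (circles) and B10.D2 (squares), with the 95% interval as a line and filled symbols for an adjusted p by edgeR under 0.05. Of the 20 values, 6 are filled, Trem2 in both strains, and Cd163 alone lies below 0 in both.

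The balance between members was described by the ratio of their CPM within each library, which does not depend on the library total. The ratio of Trem2 to Mrc1 was 0.0614, 0.0691, 0.0404, 0.0791, 0.0458 and 0.0376 in BALB/c sham libraries 50, 51, 55, 56, 57 and 71, and 0.106, 0.0680, 0.0702 and 0.0997 in SNI libraries 49, 64, 65 and 70. In B10.D2 it was 0.0355, 0.0340, 0.0329, 0.0381 and 0.0291 in sham and 0.0546, 0.0450, 0.0528, 0.0564 and 0.0720 after SNI. The B10.D2 groups did not overlap, and in BALB/c 2 of the 6 sham libraries reached the lowest SNI values. Against Cd163, the Trem2 ratio was 0.134 to 0.293 in BALB/c sham and 0.326 to 0.622 after SNI, and 0.0947 to 0.193 and 0.224 to 0.555 in B10.D2, with no overlap in either strain. The ratio of Tyrobp to Mrc1 had a mean of 0.113 in sham and 0.149 after SNI in BALB/c, and of 0.116 and 0.159 in B10.D2, where the groups did not overlap (0.109 to 0.131 and 0.147 to 0.177). The pairs were chosen after the members' own values were seen, so these ratios are a description with no test.

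**Figure D3:**
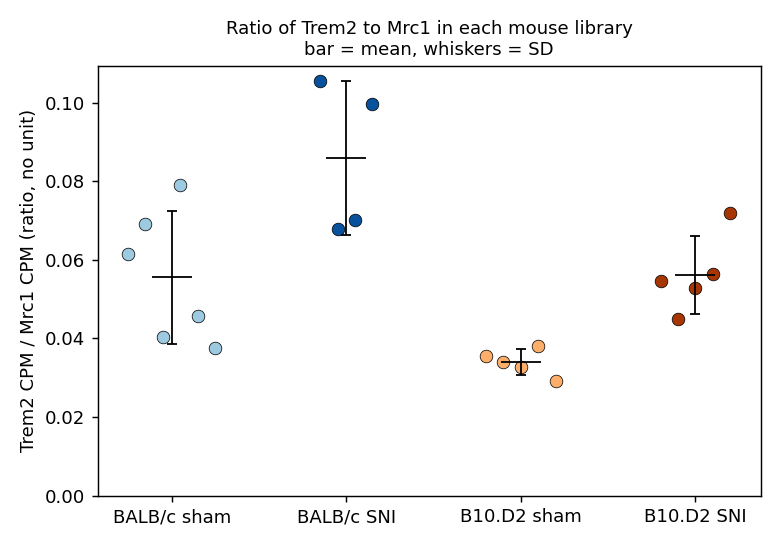
Ratio of Trem2 CPM to Mrc1 CPM (y axis, no unit) in each mouse library by group (x axis), with the mean as a bar and the SD as whiskers. The mean was 0.0556 in BALB/c sham and 0.0859 in BALB/c SNI, and 0.0339 in B10.D2 sham and 0.0562 in B10.D2 SNI.

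Levels of several members differed between the strains in sham-operated mice. In sham ganglia 4 of 10 members were called, each higher in B10.D2 than in BALB/c: Adgre1, Aif1, Fcgr3 and Tyrobp. After SNI, Adgre1 and Aif1 were called higher in B10.D2. Over all features, 11.5% were called higher in B10.D2 in sham and 10.9% after SNI, so the count of 2 of 10 after SNI stood nearer to its background than the 4 of 10 in sham. Adgre1 lay at 5.79 to 14.7 CPM in BALB/c sham, with a median of 9.04 CPM, and at 16.4, 13.4, 15.2, 13.7 and 14.9 CPM in B10.D2 sham. Only BALB/c sham 55 reached the B10.D2 range, and the log2 difference was 0.70 (SE 0.16, adjusted p 0.00236 by edgeR). After SNI it stood at 9.99, 14.7, 18.2 and 11.6 CPM in BALB/c and at 28.1, 20.5, 22.2, 15.7 and 18.7 CPM in B10.D2 (log2 difference 0.60, SE 0.17, adjusted p 0.0158 by edgeR). Aif1 lay at 1.79 to 3.04 CPM in BALB/c sham, with a median of 2.58 CPM, and at 3.22, 3.38, 3.75, 3.01 and 4.06 CPM in B10.D2 sham, where the ranges touched at B10.D2 sham 77. Its log2 difference was 0.55 in sham (SE 0.16, adjusted p 0.0153 by edgeR) and 0.55 after SNI (SE 0.17, adjusted p 0.0263 by edgeR).

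Fcgr3 (log2 difference 0.50, SE 0.17, adjusted p 0.0441 by edgeR) and Tyrobp (0.42, SE 0.15, adjusted p 0.0486 by edgeR) were close to the threshold in sham, and neither was called without the sex term or with library totals alone. When 1 library at a time was left out, Fcgr3 lost its call in 10 of 20 fits and Tyrobp in 16 of 20, and without B10.D2 sham 88 only 1 member was called. Trem2, in contrast to these, had a log2 difference of -0.30 in sham and -0.32 after SNI and was called in neither (adjusted p 0.229 and 0.21 by edgeR). Reads of both strains were aligned to 1 reference genome, and the part of sequence differences between the strains in these values was not tested.

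The injury response itself was not shown to differ between the strains. No member was called for the interaction of strain and injury (0 of 10, 0 at an unadjusted p under 0.05, and 0 by DESeq2), where 0.0243% of all features were called. The interaction, B10.D2 minus BALB/c, was -0.02 (95% interval -0.50 to 0.46) for Trem2, -0.26 (95% interval -0.85 to 0.34) for Lyz2 and -0.35 (95% interval -1.24 to 0.53) for Cd163 on the log2 scale. The larger number of members called in BALB/c therefore does not show a larger response there.

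Between the sexes, all 10 members had lower fitted values in males, by 0.01 (Trem2) to 0.35 (Adgre1) on the log2 scale, and none was called, against 0.243% of all features. At an unadjusted p under 0.05, 2 members differed, Adgre1 (adjusted p 0.215 by edgeR) and Cd68 (adjusted p 0.42 by edgeR), and DESeq2 called none. In the SNI libraries fitted alone, where 0.14% of all features were called, 1 member was called lower in males, Mrc1 (log2 difference -0.44, adjusted p 0.0437 by edgeR), named after its value was seen. In the sham libraries alone no member was called (0 of 10, 0.0786% of all features), and the log2 difference of Mrc1 was -0.0268 there (adjusted p 1 by edgeR). The interaction of sex and injury gave 0 of 10 members called with edgeR, 0 at an unadjusted p under 0.05 and 0 by DESeq2, with 0% of all 25143 features called and 1353 at an unadjusted p under 0.05.

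Neutrophil genes moved with several members. Among BALB/c sham libraries, sham 50 and 55 held the 2 highest values of Lyz2, Itgam, Cd163, Mrc1, Tyrobp, Fcgr3, Cd68 and Adgre1, and these were the libraries with 256 and 142 CPM of summed neutrophil genes. SNI 49, with 423 CPM, held the highest BALB/c value of Itgam (3.60 CPM) and 154 CPM of Lyz2, but a low Aif1 (2.01 CPM) and Adgre1 (9.99 CPM). None of the 10 neutrophil genes was called after SNI in either strain, while between the strains 4 were called lower in B10.D2 in sham and all 10 after SNI. After SNI, 7 of 10 cell cycle genes and 4 of 6 B cell genes were also called lower in B10.D2, and in sham 4 of 9 T and NK cell genes were called higher there. Of all 24685 features, 5322 were called between the strains in sham and 5144 after SNI, in either direction. The part of these cells in the strain differences of the members was not tested. Without these 4 libraries, 6 of 10 members were called higher after SNI in BALB/c (Adgre1 in addition), where 2.68% of all features were, and Trem2 had a log2 fold change of 0.91 (SE 0.20, adjusted p 0.0112 by edgeR) and Lyz2 of 0.87 (SE 0.15, adjusted p 0.00218 by edgeR). The strain counts rose from 4 to 7 of 10 in sham (Mrc1, Cd163 and Lyz2 in addition, 10.3% of all features) and from 2 to 4 of 10 after SNI (Tyrobp and Fcgr3 in addition, 7.43% of all features). Leaving these libraries out was chosen after seeing the data, by a value that moves with several members, so these counts are not independent of the members' own levels.

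**Figure D4:**
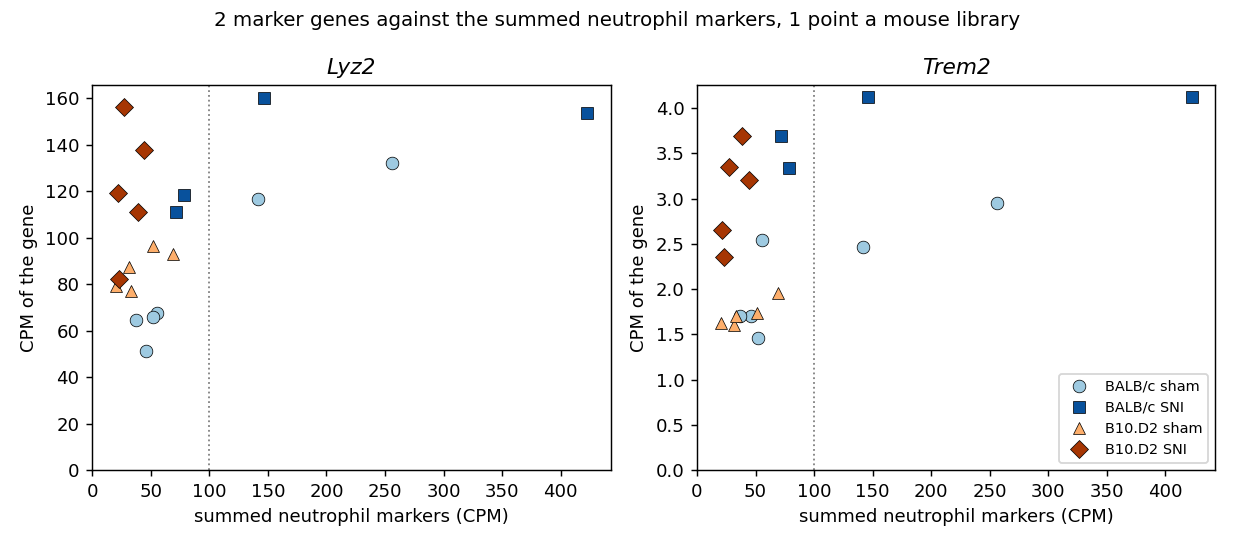
CPM of Lyz2 (left) and Trem2 (right) on the y axis against the summed CPM of 10 neutrophil genes on the x axis, 1 point a mouse library, with a dotted line at 100 CPM. The 4 libraries right of the line are BALB/c sham 50 and 55 and BALB/c SNI 49 and 65, and Trem2 of the SNI libraries lies above that of the sham libraries of the same strain on both sides of it.

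The members varied together between libraries of the same group. After taking out sex, strain and injury from log2(CPM + 1), the correlation over the 20 mouse libraries had a median of 0.713 for the 45 pairs of members, from -0.423 to 0.925, and 32 pairs were above 0.5. The highest were Adgre1 with Mrc1 (0.925), Itgam with Lyz2 (0.90) and Lyz2 with Tyrobp (0.90). Aif1 stood apart, with a correlation of 0.0605 to the mean of the other 9 members, where each of the others had 0.614 (Cd163) to 0.926 (Lyz2) to the mean of the rest. The libraries with the highest mean of the members were BALB/c sham 55 and 50, at 0.423 and 0.415 above their group on the log2 scale. These are correlations over libraries that share a ganglion's cell mix and are given with no test. Among 18583 features averaging 1 CPM or more, the 10 most like the mean of the members were Nckap1l (0.951), a subunit of the actin regulator of blood cells, Vsir (0.945), an immune checkpoint receptor, Emilin2 (0.930), Stk17b (0.929), Arhgap9 (0.929), Arhgap30 (0.924), Sla (0.921), Fcer1g (0.921), the common chain of activating antibody receptors, Cd53 (0.920) and Il17ra (0.919). Of these, Nckap1l (log2 fold change 0.62, adjusted p 0.0193 by edgeR) and Il17ra (0.74, adjusted p 0.0086 by edgeR) were called after SNI in BALB/c and none was called in B10.D2.

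Of 28 other genes of macrophages and monocytes, 8 rose and 1 fell after SNI in BALB/c, and 3 rose in B10.D2, Ctss, Ms4a7 and Gpnmb, all of which were also called in BALB/c. Over all features, 4.82% were called higher after SNI in BALB/c and 2.1% in B10.D2. Ms4a7, a membrane protein of macrophages, had log2 fold changes of 1.16 (SE 0.18, adjusted p 0.000256 by edgeR) and 1.01 (SE 0.18, adjusted p 0.00149 by edgeR), and Ctss, the lysosomal protease cathepsin S, of 0.99 and 0.86 (adjusted p 0.00326 and 0.0155 by edgeR). Cx3cr1, the fractalkine receptor, was called in BALB/c alone (0.97, SE 0.20, adjusted p 0.00308 by edgeR). The others that rose in BALB/c were Csf1r, Fcgr1, Irf8, Laptm5 and Gpnmb. Spp1, osteopontin, which neurons also express, was the gene that fell (log2 fold change -0.40, adjusted p 0.0241 by edgeR). Csf1, named after its value was seen, is the growth factor that acts on Csf1r and that injured sensory neurons make. It rose by 0.87 in BALB/c (adjusted p 2.24e-07 by edgeR) and 0.59 in B10.D2 (adjusted p 7.91e-05 by edgeR) on the log2 scale, and its receptor Csf1r by 0.47 in BALB/c (adjusted p 0.0325 by edgeR). In B10.D2, Csf1r was not called. In sham ganglia 10 of the 28 genes were higher in B10.D2 and 1 lower, and after SNI 6 were higher. Over all features, 11.5% were called higher in B10.D2 in sham and 10.9% after SNI. Named after their values were seen, those higher in sham included C1qb (log2 difference 1.09, adjusted p 5e-05 by edgeR), Ccr2 (1.01, adjusted p 0.000325 by edgeR) and Ctss (0.87, adjusted p 0.00246 by edgeR).

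Genes that mark microglia, the macrophages of the spinal cord and brain, were also present in the ganglia. Of 8 tested in mouse, 3 rose after SNI in BALB/c (P2ry12, Gpr34 and P2ry13) and 1 in B10.D2 (Olfml3), and their sum was 45.8 to 77.4 CPM in BALB/c and 65.04 to 109 CPM in B10.D2. Their part in the members' values was not tested. T and NK cell genes gave 0 of 9 and B cell genes 0 of 6 called after SNI in either strain. Of 10 cell cycle genes, 1 rose in BALB/c, Ccnb1 (log2 fold change 1.32, SE 0.39, adjusted p 0.0339 by edgeR), and none in B10.D2. Of 10 neuron genes, 4 fell in each strain, among them the neurofilaments Nefh (log2 fold change -0.70 in BALB/c, adjusted p 4.76e-06 by edgeR) and Nefm (-0.57, adjusted p 0.00272 by edgeR). Of all 24685 features, 2392 were called after SNI in BALB/c and 1130 in B10.D2, in either direction.

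In the rat, no member was called after SNT with all 8 libraries (0 of 6, with 2 at an unadjusted p under 0.05 and 1, Itgam, called by DESeq2), whereas 27.4% of all 13690 features were called. That share depended on single libraries, from 10.6% without sham 3 to 36.1% without SNT 1, and was 34.6% without sham 4, 11.6% without SNT 2, 13.8% without SNT 3, 15% without SNT 4, 15.5% without sham 1 and 15.9% without sham 2. Without sham library 4, 5 of 6 members rose, Lyz2, Itgam, Trem2, Tyrobp and Adgre1, by 1.94-fold to 3.65-fold, and 17.3% of all features were called higher. Sham 4 was singled out after its values were seen, and it held the highest sham value of each of these 5. The count without it is therefore not independent of the members' own levels. With all libraries no member's groups were free of overlap (0 of 6), where 26.5% of all features were. Aif1, Cd68 and Mrc1 were listed at 0 in all 8 libraries, so no change is given for them. The same held for 39.5% of 15770 rat genes matched by symbol to protein-coding mouse genes. These zeros are not read as absence of the RNA. Of 6658 assembled LncRNAs of the rat, 0 lay on chromosomes 10 to 20, where 36.8% of 219118 rat splice junctions lay. Whether genes of those chromosomes are missing from the rat counts was not tested. Fcgr3 was not found under that symbol in the rat table, and Fcgr3a was at 0 in all 8 libraries.

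Lyz2 stood at 546, 292, 314 and 1350 CPM in rat sham libraries 1 to 4 and at 1239, 1427, 1708 and 1187 CPM in SNT libraries 1 to 4. Sham 4 lay among the SNT libraries and the other 3 sham libraries lay below them. The log2 fold change was 1.15 (SE 0.44, adjusted p 0.0756 by edgeR) with sham 4 and 1.87 (SE 0.25, adjusted p 0.00181 by edgeR) without it. Itgam was at 28.8, 15.2, 16.5 and 53.0 CPM in sham and 42.5, 53.7, 95.6 and 49 CPM in SNT, with log2 fold changes of 1.09 (SE 0.40, adjusted p 0.0686 by edgeR) and 1.6 (SE 0.32, adjusted p 0.00649 by edgeR). Here too sham 4 alone overlapped the SNT range.

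Trem2 was at 13.9, 6.28 and 6.98 CPM in rat sham 1 to 3 and 64.1 CPM in sham 4, above all SNT libraries (21.4, 30.1, 41.3 and 17.2 CPM). Its log2 fold change was 0.27 (SE 0.67, adjusted p 0.787 by edgeR) with sham 4 and 1.63 (SE 0.36, adjusted p 0.00903 by edgeR) without it. Tyrobp was likewise highest in sham 4, with 13.6, 9.76, 8.05 and 42.6 CPM in sham and 27.8, 28.3, 41.8 and 23.2 CPM in SNT (log2 fold change 0.71, adjusted p 0.278 by edgeR, and 1.55, adjusted p 0.0029 by edgeR, without sham 4). Adgre1 was at 48.7, 30.4, 26.2 and 74.5 CPM in sham and 60.6, 62.5, 77.9 and 69.3 CPM in SNT, with log2 fold changes of 0.59 (adjusted p 0.144 by edgeR) and 0.96 (adjusted p 0.00803 by edgeR). Cd163 overlapped fully, at 26.0, 17.7, 7.20 and 19.4 CPM in sham and 28.1, 13.1, 24.8 and 14.6 CPM in SNT. It was the 1 tested member not called without sham 4 (log2 fold change 0.26, adjusted p 0.65 by edgeR).

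**Figure D5:**
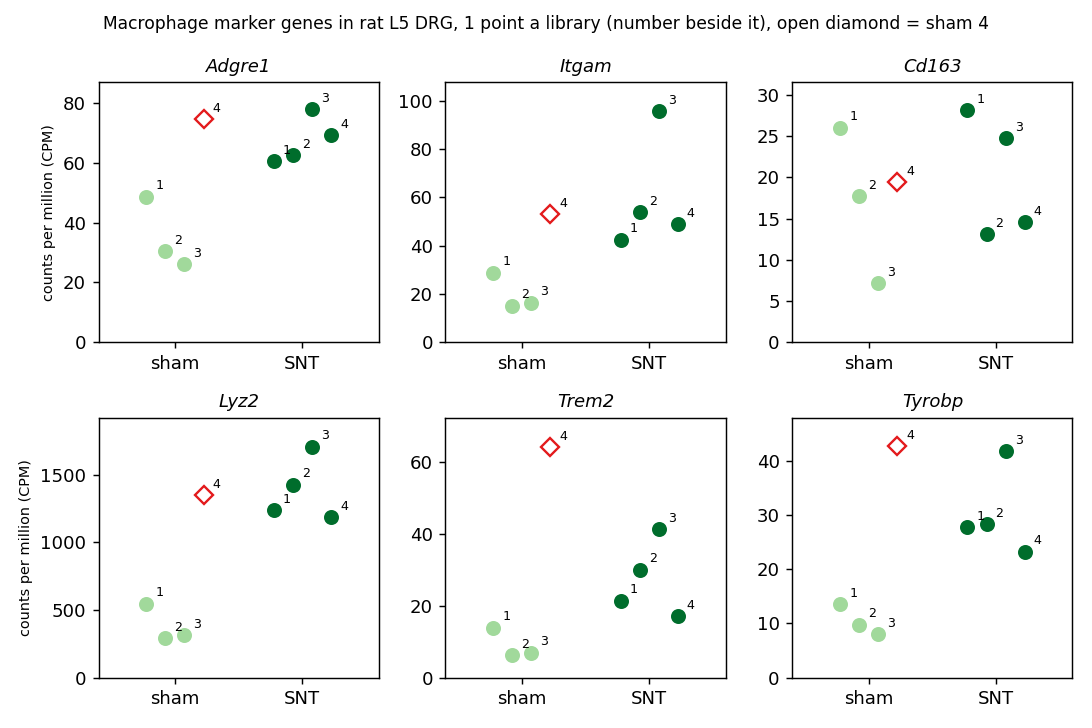
CPM of the 6 members counted in rat, by group (x axis), 1 point a library with its number, and sham library 4 as an open diamond. Sham 4 lies within or above the SNT values of all 6 members, and sham 1 to 3 lie below the SNT values of every member but Cd163.

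Other genes of the macrophage list moved in the same libraries in rat. Their sum was 538, 381, 397 and 1756 CPM in sham 1 to 4 and 967 to 1958 CPM after SNT. With all 8 libraries 4 of 15 tested genes were called higher, Cx3cr1 (log2 fold change 1.35, SE 0.24, adjusted p 0.0109 by edgeR), Mertk, Laptm5 and Ms4a7. Over all features, 27.4% were called in this fit, which counts both directions and also applies to the other lists below. The share called higher alone is not given for this fit, so the 4 of 15 has no like share beside it. Without sham 4, 14 of 15 were called higher, where 17.3% of all features were called higher and 34.6% in either direction. Cx3cr1 then had a log2 fold change of 1.67 (adjusted p 0.000614 by edgeR). Of 6 T and NK cell genes tested, 4 rose, Cd3e (2.0, adjusted p 0.0117 by edgeR), Il2rb (1.37, adjusted p 0.0255 by edgeR), Cd4 (1.27, adjusted p 0.0118 by edgeR) and Lck. Cd4, which rat macrophages also carry, held most of the summed level of that list, with a mean of 47.3 ± 18.9 CPM (SD) in the 4 sham and of 114 ± 20.2 CPM (SD) in the 4 SNT libraries. Of the microglia list, 2 of 4 tested genes rose, P2ry13 (1.15, adjusted p 0.0225 by edgeR) and Olfml3 (0.75, adjusted p 0.0153 by edgeR). Neutrophil genes gave 0 of 6 called, with sham 4 or without it, and their sum was 14.9 to 22.1 CPM in sham and 12.8 to 23.1 CPM after SNT. Without sham 4, 7 of 7 T and NK cell genes tested (Cd4 at 1.59, adjusted p 0.00107 by edgeR), 3 of 4 microglia genes and 4 of 5 cell cycle genes were called higher, where no cell cycle gene was called with all 8 libraries (0 of 5). The part of these cell types in the members' values was not tested.

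Set side by side, Trem2 rose after SNI in both mouse strains and Lyz2 and Tyrobp in BALB/c. In rat no member was called with all 8 libraries (0 of 6), and sham 4 held the highest rat values of Trem2 and Tyrobp. Without sham 4, which was singled out after its values were seen, Trem2, Lyz2 and Tyrobp were among the members called higher. Cd163 was called in none of the 3 injury comparisons, with sham 4 or without it. Mouse and rat differed in the lesion, the ganglia taken, the days after surgery, the pooling of animals and the library kit (ribosomal RNA removed in mouse, poly(A) selected in rat), so no test was made between the species.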

How the data were processed

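The counts were deposited as 1 table of raw counts per feature for each species: per the labels and the study's methods, the authors removed ribosomal RNA (mouse) or selected poly(A) RNA (rat), aligned the strand-marked read pairs with STAR to mm10 or rn6, used for both mouse strains, and counted reads over annotated genes and their own assembled LncRNAs with HTSeq in its intersection-nonempty mode, in which reads shared by 2 genes are not counted. Gene symbols came from the symbol column of the authors' result tables, whose fold changes and p-values were not used. One B10.D2 sham and one BALB/c SNI sample of the labels have no column and were not analysed here.

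Low counts were filtered with filterByExpr, libraries scaled by TMM, and all features fitted with the quasi-likelihood test of edgeR 4.0.16 in R 4.3.3 (mouse: strain, injury and sex over 20 libraries, with the sex by injury interaction in a second fit; rat: injury over 8), with Benjamini-Hochberg adjustment over all features tested. CPM are counts per M (mega) of the TMM-scaled total. Alternatives were DESeq2 1.42.0, RLE scaling, library totals alone, other filters, no sex term, each strain alone, the replicate block in rat and leaving out each library. The test was checked on simulated counts. The 10 members and the gene lists were chosen with earlier results of these data known. From each other list, the 3 called genes with the largest injury change are named, the 10 genes most like the members are named by their correlation, and others are said to be named after their values were seen or complete a count. Mouse replicates are separate animals and rat replicates separate pools. The 95% intervals are of the log2 fold change, built from its SE and the normal distribution. They are narrower than the quasi-likelihood test would give and do not describe the spread of single libraries.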

Additional observations from a re-analysis of the deposited data

Results flagged for a closer look

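In 3 of 52 sets of a member and a group of 4 to 6 libraries, 1 library lay far from the others by Dixon's criterion, which chance meets in about 1 in 20 sets. Cd68 stood at 5.75 CPM in BALB/c SNI 65, with the next library of its group at 3.89 CPM. That library also held 146 CPM of summed neutrophil genes. Trem2 stood at 64.1 CPM in rat sham 4, with the next sham library at 13.9 CPM, and Tyrobp at 42.6 CPM in rat sham 4, with the next at 13.6 CPM. In the same library the axon injury genes summed to 429 CPM, against 133 to 155 CPM in the other sham libraries. Whether that library was exchanged, mixed or taken from injured tissue was not tested.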

How the results depend on the processing

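Trem2 was called after SNI in both strains under all the alternatives run, and Adgre1 in the sham comparison of the strains likewise. The number of members called after SNI in BALB/c (5) was 1 with the groups of the strain alone and 1 to 6 without 1 library each. In B10.D2 (1) it was 2, Tyrobp in addition, under DESeq2, with no filter on low counts, with no sex term and with the strain alone, and 1 to 2 without 1 library each. For the strains in sham (4) it was 2 with library totals alone and 2 with no sex term, 7 without the 4 BALB/c libraries over 100 CPM of neutrophil genes, and 1 to 5 without 1 library each. After SNI (2) it was 4 without those neutrophil-rich libraries, and 0 (without BALB/c SNI 49) to 2 without 1 library each. Between the sexes (0) it was 1 in SNI libraries alone. In rat (0) it was 1 under DESeq2, 5 without sham 4 and SNT 1, and 0 to 5 without 1 library each. Leaving out those sets of libraries was chosen after seeing the data, and the causes were not tested.

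Some log2 differences changed sign, none of which was called with all libraries in the fit. Without the neutrophil-rich libraries Itgam was at 0.49 between strains in sham, and after SNI Cd68 was at 0.145, Itgam at 0.32 and Lyz2 at 0.0508. With no sex term Itgam was at 0.0176 after SNI. Without 1 library each, Mrc1 after SNI in B10.D2 ranged from -0.0668 to 0.114. Between strains in sham, Itgam ranged from -0.184 to 0.215 and Lyz2, which was called without the neutrophil-rich libraries (0.49, adjusted p 0.00783 by edgeR), from -0.0372 to 0.318. Between strains after SNI, Cd68 ranged from -0.133 to 0.0972, Itgam from -0.173 to 0.201 and Cd163 from -0.113 to 0.289. In rat, Cd163 ranged from -0.0622 to 0.465 and Trem2 from -0.0313 to 1.63, the last without sham 4, where Trem2 was called (adjusted p 0.00903 by edgeR).

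The rat titles share numbers between sham and SNT, but same-numbered libraries did not deviate together (r 0.05, -0.293, -0.114 and -0.0936), so the numbers were not taken as pairs. With them as a replicate block 0 of 6 members were called and 2558 features, against 3753 without it. No paired analysis was possible in mouse because each library is a separate animal with its own number. With 4 to 6 libraries a group, members near 0.05 changed side under small changes of the fit.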
